A study of Mus musculus with 24 samples.

Results

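The promoters of 573 long intergenic noncoding RNA (lincRNA) genes were examined for H3K4me3 and H3K27me3 in the supporting cells of the mouse fetal gonad. A promoter here is the window from 2 kb before to 2 kb after the annotated transcription start site (TSS) on mm9, which spans 4001 bp. A lincRNA gene of chromosomes 1 to 19 was kept when its window overlapped no such window of a protein-coding gene. This left 573 of 1232 lincRNA genes on these chromosomes, of 1273 in the whole annotation, and removed 659 whose mark calls could belong to a coding promoter. The whole annotation holds 37310 genes, 34653 of them on chromosomes 1 to 19, and 21418 of these are protein-coding. The rule uses no measured value, but it was chosen with earlier results of these data known.

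ChIP-seq for H3, H3K4me3 and H3K27me3 was done in 4 populations of C57BL/6 x CD1 embryos, with 2 replicates each and 24 samples in all. XY and XX progenitor cells were sorted at E10.5 by SF1-eGFP, Sertoli cells at E13.5 by Sox9-CFP from XY gonads, and pregranulosa cells (granulosa in the labels) at E13.5 by TESM-CFP from XX gonads. Each population is thus what its reporter marked in sorted cells, and no label gives a mutation beside the reporter. The deposited data are 8 lists of enriched regions, 1 for each of the 2 methyl marks in each population, made after both replicates were joined, with H3 as the control. Replicates cannot be told apart in such lists. The populations are therefore compared without a test, and the intervals given with shares are exact (Clopper-Pearson) 95% binomial intervals that cover counting error over promoters only.

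H3K4me3 is laid down at active and poised start sites, and H3K27me3 is the mark of Polycomb repressive complex 2. Promoters that carry both are called bivalent. They are typical of developmental regulators that are silent but can be turned on, and loss of H3K27me3 from them accompanies activation. lincRNAs are spliced, polyadenylated transcripts made by RNA polymerase II from their own promoters, so the same marks apply to them, but many are expressed in few tissues and at low levels. Their best known members silence imprinted genes, carry small RNAs in their introns or lie beside developmental transcription factors.

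Depth differed between the lists. For H3K4me3 the headers gave 10162534 tags in the XY progenitors, 49254553 in the XX progenitors and 31104760 in Sertoli cells, and for H3K27me3 6470151, 33185400 and 44446456. Depth and calling settings are unknown for pregranulosa cells, whose lists have no header lines. After overlapping peaks were joined, the H3K4me3 lists held 37849 to 44349 regions and the H3K27me3 lists 9309 to 13313. The pregranulosa H3K27me3 list held 12609 peaks before and after joining, where the others held 36469 to 74154 peaks before it. Whether that list was prepared in another way is not known. It covered 172.9 Mb, against 90.9 to 157.9 Mb in the others. At their own promoters the sorted cells carried the marks of their labels in part. The genes listed for supporting progenitors, Wt1, Nr5a1, Gata4, Lhx9 and Emx2, were all bivalent in both progenitor populations. At E13.5 Wt1, Nr5a1 and Gata4 had H3K4me3 alone in both cell types. Lhx9 and Emx2 had it alone in pregranulosa cells and were called bivalent in Sertoli cells. There H3K27me3 covered 4001 bp of the Lhx9 window but only 525 bp of that of Emx2. Sox9, Dmrt1, Dhh and Fgf9, which act in Sertoli cells, were bivalent in both progenitor populations and in pregranulosa cells and kept only H3K4me3 in Sertoli cells. The other Sertoli genes listed differed. Amh had H3K4me3 alone in all but pregranulosa cells, where it was bivalent. H3K4me3 covered 3294 bp of the Amh window in Sertoli cells but only 150 bp in the XY progenitors. Ptgds had H3K4me3 alone in Sertoli cells and no mark elsewhere. Wnt4, Rspo1 and Bmp2, which act in the ovary, were bivalent in the other 3 populations and kept only H3K4me3 in pregranulosa cells, while Foxl2 and Fst were called bivalent in all 4. Of the Fst window 1284 bp was under H3K27me3 in pregranulosa cells, against 4001 bp in the other 3. For Foxl2 the paper reports a loss of H3K27me3 at the TSS and gene body in pregranulosa cells. It adds that a window of this size does not show that loss. Markers of other cell types were mixed. Ddx4 (germ cells), Pecam1 and Tie1 (endothelium) and Ptprc (blood) had neither mark in any population. Dazl (germ cells) and Star (steroidogenic cells) had H3K4me3 alone in all 4, and Kdr (endothelium) and Insl3 (Leydig cells) were bivalent in all 4. For Insl3 this rested on 100 bp of H3K4me3 in the XY progenitors and 193 bp in Sertoli cells. Among the markers that varied, Cdh5 (endothelium) had H3K4me3 in pregranulosa cells only and Cyp11a1 (steroidogenic cells) in the XX progenitors only, both without H3K27me3. Pou5f1 (germ cells) had its whole window under H3K27me3 in all 4, with 1001 bp of H3K4me3 in Sertoli cells only. Dppa3 (germ cells) had H3K4me3 in all but the XY progenitors and H3K27me3 in all but pregranulosa cells. The part of other cell types in the lincRNA calls was not tested.

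Sequences of 9 of the promoters are given, of 300 bases each, from 250 bases before the TSS to its first 50 transcribed bases, read 5′ to 3′ on the strand of the gene from the mm9 assembly (NCBIM37). Capitals mark CpG dinucleotides, whose density differed between the mark classes. The first 3 show the range of CpG content among promoters with H3K4me3. Meg3 (chr12:110778961-110779260, plus strand) and Snhg5 (chr9:88417672-88417971, minus strand) had H3K4me3 alone in all 4 populations. Miat (chr5:112657919-112658218, minus strand) was bivalent in all 4.
Meg3: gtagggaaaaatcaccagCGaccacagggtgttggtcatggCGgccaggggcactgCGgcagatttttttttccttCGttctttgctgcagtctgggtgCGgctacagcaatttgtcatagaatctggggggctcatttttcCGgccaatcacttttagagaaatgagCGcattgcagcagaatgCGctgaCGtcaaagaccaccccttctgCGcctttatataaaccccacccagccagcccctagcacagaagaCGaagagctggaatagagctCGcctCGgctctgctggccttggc
Snhg5: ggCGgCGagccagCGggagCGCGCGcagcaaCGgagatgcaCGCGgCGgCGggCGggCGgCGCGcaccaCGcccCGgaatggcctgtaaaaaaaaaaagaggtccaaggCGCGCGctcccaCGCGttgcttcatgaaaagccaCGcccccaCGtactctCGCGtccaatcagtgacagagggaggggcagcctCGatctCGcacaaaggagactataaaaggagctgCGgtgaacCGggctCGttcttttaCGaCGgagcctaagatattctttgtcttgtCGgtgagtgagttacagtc
Miat: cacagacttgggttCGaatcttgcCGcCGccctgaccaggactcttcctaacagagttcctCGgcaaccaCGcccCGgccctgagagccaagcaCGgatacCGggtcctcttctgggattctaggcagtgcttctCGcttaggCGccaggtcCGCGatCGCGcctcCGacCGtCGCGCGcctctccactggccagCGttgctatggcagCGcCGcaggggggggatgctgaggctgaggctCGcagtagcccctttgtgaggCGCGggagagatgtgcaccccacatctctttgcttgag

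Snhg5 has 34 CpGs in its 300 bases, Miat 25 and Meg3 13. The Meg3 and Snhg5 sequences also hold TATAAA and those of Snhg5 and Miat hold GGGCGG, on either strand. The next set shows a promoter with H3K27me3 alone in all 4 populations, Sox2ot (chr3:34003110-34003409, plus strand), and 1 with no mark in any, Mirg (chr12:110972941-110973240, plus strand), with 5 and 10 CpGs.
Sox2ot: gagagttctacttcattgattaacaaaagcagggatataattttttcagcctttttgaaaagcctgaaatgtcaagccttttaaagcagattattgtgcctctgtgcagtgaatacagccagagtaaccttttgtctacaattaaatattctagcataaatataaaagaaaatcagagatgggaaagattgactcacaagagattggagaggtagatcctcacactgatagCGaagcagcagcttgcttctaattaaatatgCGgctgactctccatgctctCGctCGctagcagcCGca
Mirg: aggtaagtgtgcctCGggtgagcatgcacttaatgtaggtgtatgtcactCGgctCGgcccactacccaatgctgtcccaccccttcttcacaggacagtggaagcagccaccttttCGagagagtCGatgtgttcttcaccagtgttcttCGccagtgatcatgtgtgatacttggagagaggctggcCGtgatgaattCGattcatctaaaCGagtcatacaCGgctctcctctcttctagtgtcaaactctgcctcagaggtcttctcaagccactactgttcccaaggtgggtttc

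The last set holds promoters chosen for their neighbours or for a change between E10.5 and E13.5. Gm2670 (chr14:29324529-29324828, minus strand) was bivalent throughout and lies inside the gene of the Wnt ligand Wnt5a. Gm17277 (chr10:88807458-88807757, minus strand) lost H3K27me3 only in Sertoli cells and Gm16197 (chr17:29215857-29216156, minus strand) only in pregranulosa cells. Gm15050 (chr6:52122630-52122929, plus strand), in the HoxA cluster, gained H3K27me3 in both E13.5 cell types. These sequences hold 22, 34, 8 and 25 CpGs.
Gm2670: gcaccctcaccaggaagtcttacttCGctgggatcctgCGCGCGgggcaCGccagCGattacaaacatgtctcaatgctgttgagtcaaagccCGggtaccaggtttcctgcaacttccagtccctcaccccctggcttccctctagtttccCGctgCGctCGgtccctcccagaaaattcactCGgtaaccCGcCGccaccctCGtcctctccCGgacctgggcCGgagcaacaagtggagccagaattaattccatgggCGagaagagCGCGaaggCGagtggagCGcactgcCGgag
Gm17277: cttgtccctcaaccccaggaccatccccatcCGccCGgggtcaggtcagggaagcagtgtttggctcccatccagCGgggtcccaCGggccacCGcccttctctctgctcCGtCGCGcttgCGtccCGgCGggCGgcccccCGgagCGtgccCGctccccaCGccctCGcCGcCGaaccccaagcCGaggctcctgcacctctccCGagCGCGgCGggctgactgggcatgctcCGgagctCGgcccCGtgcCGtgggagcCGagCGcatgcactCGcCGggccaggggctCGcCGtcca
Gm16197: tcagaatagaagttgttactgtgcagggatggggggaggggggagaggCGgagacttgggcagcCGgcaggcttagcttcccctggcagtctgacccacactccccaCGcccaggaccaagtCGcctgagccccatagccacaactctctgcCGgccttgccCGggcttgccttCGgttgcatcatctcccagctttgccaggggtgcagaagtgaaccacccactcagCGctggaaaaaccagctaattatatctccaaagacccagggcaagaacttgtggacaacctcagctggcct
Gm15050: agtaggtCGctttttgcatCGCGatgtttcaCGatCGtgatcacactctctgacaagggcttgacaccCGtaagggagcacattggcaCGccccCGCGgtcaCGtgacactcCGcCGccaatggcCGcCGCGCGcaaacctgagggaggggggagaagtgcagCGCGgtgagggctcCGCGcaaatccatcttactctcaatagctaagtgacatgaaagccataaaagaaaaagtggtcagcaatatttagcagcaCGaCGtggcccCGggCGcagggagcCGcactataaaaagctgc

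Promoters without either mark and promoters with H3K4me3 alone were the most numerous in every population, and about 1 in 5 was bivalent. In the XY progenitors 172 promoters had H3K4me3 alone, 113 were bivalent, 31 had H3K27me3 alone and 257 had no mark. In the XX progenitors these numbers were 200, 124, 17 and 232. In Sertoli cells they were 188, 124, 40 and 221, and in pregranulosa cells 217, 115, 28 and 213. Unmarked promoters led in the first 3 populations and promoters with H3K4me3 alone led in pregranulosa cells.

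**Figure D1:**
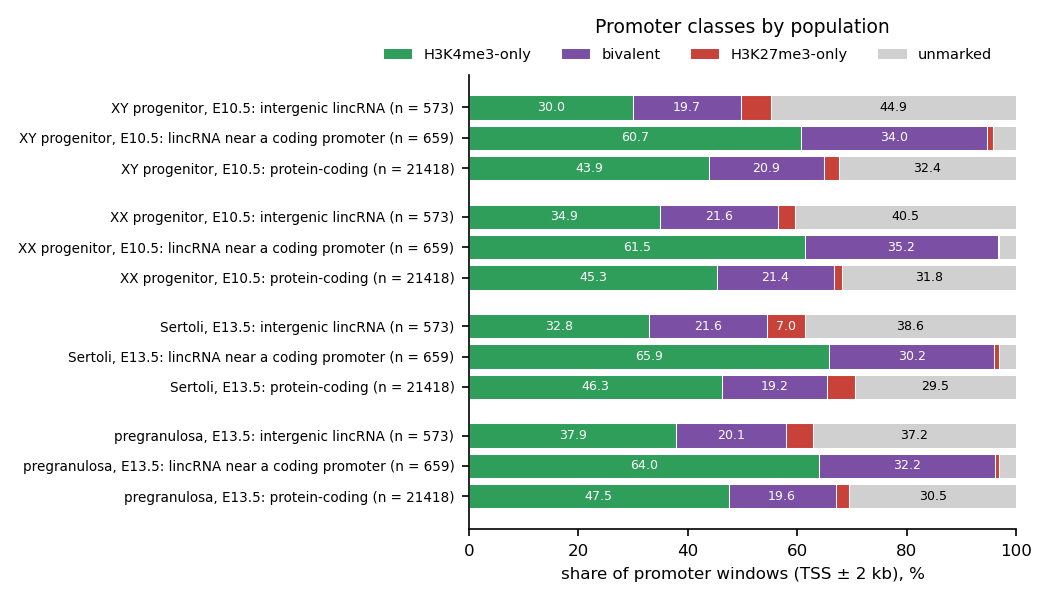
Share of promoter windows (horizontal axis, %) in each of the 4 classes, for the 573 lincRNA promoters, the 659 lincRNA promoters that overlap a coding promoter window and 21418 protein-coding promoters, in each population. The 573 had more unmarked promoters (37.2% to 44.9%) than coding genes (29.5% to 32.4%), and a similar bivalent share.

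H3K4me3 marked 49.7% (45.6 to 53.9) of the 573 promoters in the XY progenitors, where it marked 48.6% of all genes of chromosomes 1 to 19. The share was 56.5% (52.4 to 60.6) in the XX progenitors, against 50.8% of all genes. It was 54.5% (50.3 to 58.6) in Sertoli cells, against 49.6%, and 57.9% (53.8 to 62.0) in pregranulosa cells, against 51.1%. Protein-coding promoters were marked more often, at 64.8% to 67.0%. The lowest lincRNA share was in the XY progenitor list, which was made from the fewest tags with a known count. Of the 659 lincRNA promoters within reach of a coding promoter, 94.7% to 96.7% had H3K4me3.

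H3K27me3 marked 25.1% (21.6 to 28.9) of the promoters in the XY progenitors, 24.6% (21.1 to 28.3) in the XX progenitors, 28.6% (24.95 to 32.5) in Sertoli cells and 24.96% (21.5 to 28.7) in pregranulosa cells. The shares of all genes were 18.7%, 18.1%, 20.2% and 18.2%, below each of these intervals, and those of coding genes were 23.6%, 22.8%, 24.2% and 22.1%. The coding share lay inside the lincRNA interval in both progenitor populations and in pregranulosa cells and just below it in Sertoli cells, whereas for H3K4me3 it lay above the interval in all 4. Of the lincRNA promoters with H3K4me3, 34.6% to 39.7% also had H3K27me3, against 29.2% to 32.2% of coding promoters with H3K4me3.

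Bivalent promoters were 19.7% of the set in the XY progenitors, 21.6% in the XX progenitors, 21.6% in Sertoli cells and 20.1% in pregranulosa cells. Over all genes the shares were 15.6%, 16.3%, 14.6% and 15.0%, and over coding genes 20.9%, 21.4%, 19.2% and 19.6%. Where H3K27me3 was present on a lincRNA promoter, H3K4me3 was present too in 78.5%, 87.9%, 75.6% and 80.4% of cases in the same order of populations. For coding promoters these shares were 88.3%, 93.5%, 79.4% and 88.7%.

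The H3K4me3 calls sat on the start sites rather than at the window edges. Of the promoters with H3K4me3, the region covered the TSS itself in 82.1% to 86.4%, against 92.4% to 95.2% of coding promoters. The median H3K4me3 region was 1692 bp wide in the XY progenitors, 2368.5 bp in the XX progenitors, 1972.5 bp in Sertoli cells and 2227.5 bp in pregranulosa cells. At coding promoters it was wider in every population, at 2240, 2992, 2643.5 and 2939 bp. Within the 3 lists of known depth the order of the widths followed the order of the tag counts, in both gene types, and the part of depth in the widths was not tested.

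**Figure D2:**
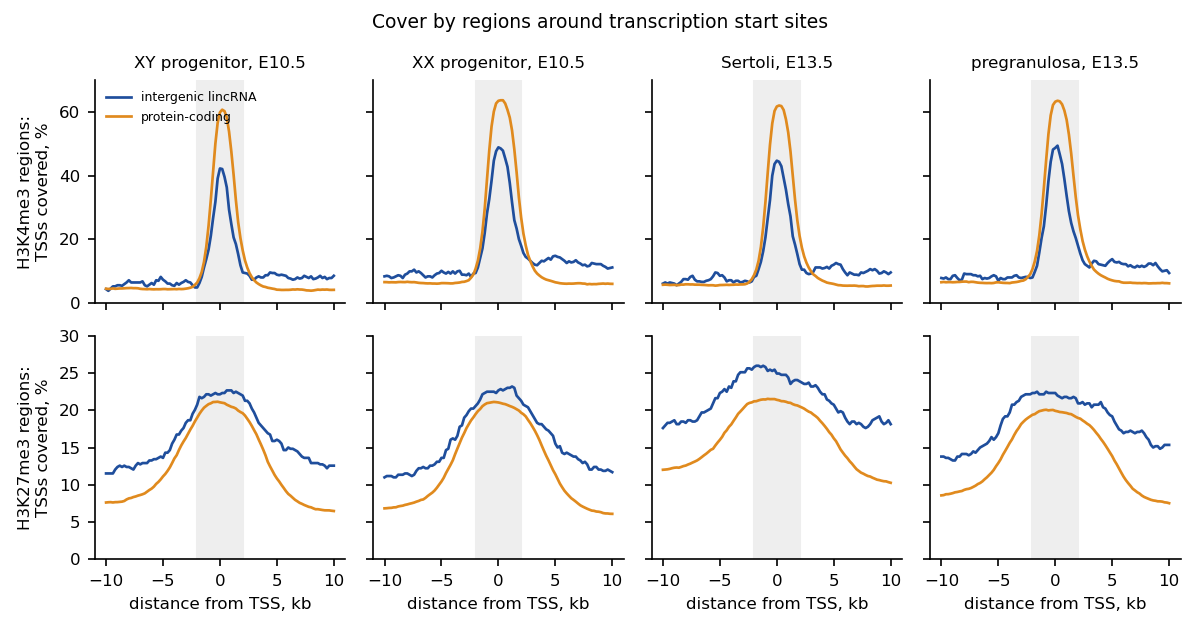
Share of start sites (vertical axis, %) with a region at each distance from the TSS (horizontal axis, kb), for H3K4me3 (top) and H3K27me3 (bottom) in each population, for lincRNA (blue) and coding (orange) genes, with the 4001 bp window shaded. H3K4me3 cover of lincRNA start sites peaks at the TSS (42.2% to 48.9%) below that of coding genes (59.9% to 63.5%), while H3K27me3 is broad and lies above that of coding genes at every distance shown.

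H3K27me3 regions were far wider than the promoters. Their median width over marked lincRNA promoters was 11044.5 bp in the XY progenitors, 10200 bp in the XX progenitors, 15051.5 bp in Sertoli cells and 14111 bp in pregranulosa cells, against 8045.5, 8903.5, 11602.5 and 10386 bp at coding promoters. The mark covered the whole 4001 bp window in 70.1% to 73.4% of marked lincRNA promoters. It also reached a coding promoter window with the same region in 39 of 144, 38 of 141, 52 of 164 and 42 of 143 promoters, or 27.1%, 26.95%, 31.7% and 29.4%. H3K4me3 regions reached a coding window in only 6 to 13 promoters (1.92% to 4.01%). When H3K27me3 regions that reach a coding window were left out, 18.3%, 17.98%, 19.7% and 17.6% of the lincRNA promoters were still marked.

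The annotation behind the set is of mixed quality, which bears on all of these shares. Of the 573 genes, 184 were annotated by hand and 389 automatically. The hand-annotated promoters had H3K4me3 more often in every population, at 57.6%, 65.2%, 65.8% and 64.7% against 46.0%, 52.4%, 49.1% and 54.8% of the automatic ones, in the order XY progenitor, XX progenitor, Sertoli, pregranulosa. The intervals were apart in the XX progenitors and in Sertoli cells and overlapped in the other populations. By symbol or synonym 280 matched a RefSeq gene (GRCm38), of which 243 are long noncoding RNAs, 18 protein-coding and 16 pseudogenes. The name intergenic did not hold throughout. The TSS of 226 (39.4%) lay inside the annotated body of a coding gene, 214 of them on the opposite strand only. Such internal promoters had H3K4me3 less often, in 37.6% to 46.5% over the 4 populations against 57.6% to 65.4% of the 347 outside coding genes, and H3K27me3 in 18.6% to 23.01% against 27.95% to 32.3%.

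The distance rule has an edge at 4 kb between start sites. The members nearest to it were Gm16627 at 4023 bp, unmarked in all populations, and 4833428L15Rik at 4027 bp, bivalent in all. The nearest genes outside it were Gm16617 at 3996 bp, marked only in pregranulosa cells, and 2700012I20Rik at 3973 bp, with H3K4me3 alone in all. In the next 2 kb within the set, from 4001 to 6000 bp, 45.7% to 54.3% of 46 promoters had H3K4me3, against 76.3% to 84.2% of 76 lincRNA promoters at 2001 to 4000 bp from a coding TSS. Within the set, the distance to the nearest coding TSS had a median of 30123 bp and ranged from 4023 to 1720622 bp. Over the 4 populations its medians ran from 26346.5 to 33755 bp for bivalent, H3K4me3-only and unmarked promoters. For promoters with H3K27me3 alone, the smallest class, they were 23117, 20549, 30448 and 21622.5 bp.

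CpG content differed between the classes. The ratio of observed to expected CpG in the 1001 bp around the TSS had a median of 0.32 over the 573 promoters and 0.56 over coding promoters. With a CpG-rich promoter defined by a ratio over 0.6 and a GC content over 55%, 72 lincRNA promoters (12.6%, 9.96 to 15.6) were CpG-rich, against 39.4% of coding ones. Among promoters of a single class in all 4 populations, the median ratio was 0.53 for H3K4me3 alone, 0.57 for bivalent, 0.22 for H3K27me3 alone and 0.23 for unmarked promoters.

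**Figure D3:**
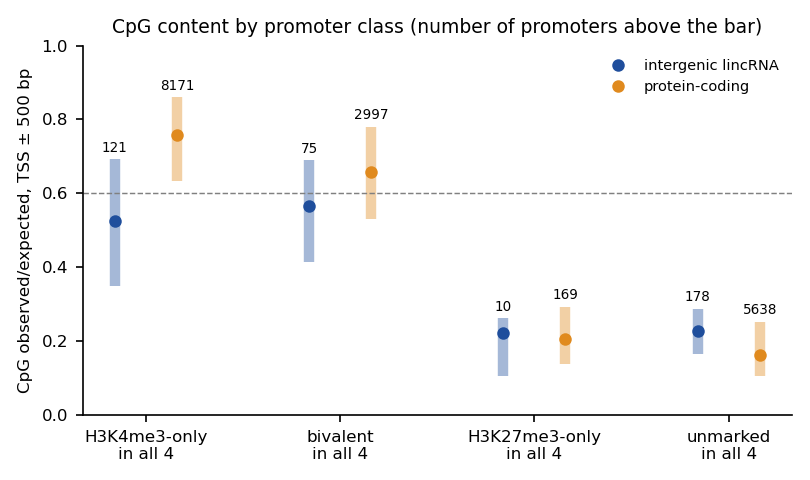
Ratio of observed to expected CpG (vertical axis) within 500 bp of the TSS, for promoters that kept a single class in all 4 populations, as the median (point) and the range from the first to the third quartile (bar), with the number of promoters above. In lincRNA (blue) and coding (orange) genes alike, promoters with H3K4me3 lie above those without it, and the dashed line marks 0.6.

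Of the 72 CpG-rich lincRNA promoters, 69 or 70 had H3K4me3 in each population (95.8% to 97.2%), against 43.1% to 52.3% of the 501 others. Coding promoters gave 99.2% to 99.7% and 42.5% to 45.8%. Outside CpG-rich promoters, lincRNA genes were thus marked at least as often as coding genes, although over all promoters they were marked less often. H3K27me3 marked 41.7% to 45.8% of the CpG-rich lincRNA promoters, at most 1 of them without H3K4me3, and 26.9% to 30.4% of the CpG-rich coding promoters. The CpG-rich promoters with no mark in any population were those of Gm16750 and Gm16599, named here after their values were seen.

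GGGCGG, a core of the binding site of Sp1-like factors, was found on either strand in the 300 bases from 250 before the TSS of 25.7% of lincRNA and 43.7% of coding promoters. It was in 49.6% of the promoters with H3K4me3 alone in all 4 populations, 36.0% of the bivalent and 10.1% of the unmarked ones, and in 0 of the 10 with H3K27me3 alone. TATAAA, the core of the TATA box, was in 12.4% of lincRNA and 13.52% of coding promoters, and among lincRNA promoters in 10.7%, 8.0% and 19.7% of the same classes and in 2 of the 10 with H3K27me3 alone. These strings overlap with CpG and GC content, and a match is not evidence of binding.

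From E10.5 to E13.5 most lincRNA promoters kept their class. From XY progenitor to Sertoli cells 82 of 113 bivalent promoters stayed bivalent, or 72.6% (63.4 to 80.5), where the share over all genes was 73.6%. From XX progenitor to pregranulosa cells 96 of 124 did, or 77.4% (69.0 to 84.4), against 79.4%. In neither sex did retention on lincRNA promoters stand apart from that over all genes. Of the others, 25 of the XY progenitor promoters kept H3K4me3 alone in Sertoli cells and 6 kept H3K27me3 alone. In the XX gonad 20 kept H3K4me3 alone, 7 kept H3K27me3 alone, and 1 lost both.

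**Figure D4:**
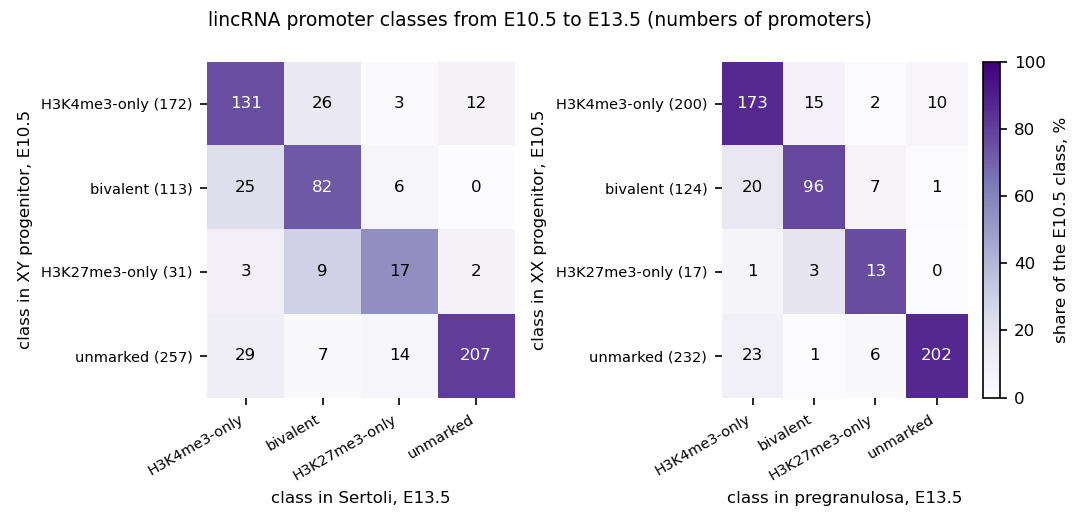
Number of lincRNA promoters in each class at E10.5 (rows, with totals) and E13.5 (columns), for the XY gonad (left) and the XX gonad (right), shaded by the share of the E10.5 class (%). The highest share in each row lies on the diagonal, and 82 of 113 and 96 of 124 bivalent promoters stayed bivalent.

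H3K4me3 was kept more often than H3K27me3. Of 285 promoters with H3K4me3 in the XY progenitors 264 had it in Sertoli cells, or 92.6% (88.96 to 95.4), against 94.9% of all genes, and 21 had lost it. Of the 288 without it 48 gained it, or 16.7% (12.6 to 21.5), against 6.77% of all genes. From XX progenitor to pregranulosa cells 304 of 324 kept it, or 93.8% (90.6 to 96.2), against 96.0%, and 28 of 249 gained it, or 11.2% (7.60 to 15.8), against 4.86%. Gains of H3K4me3 were thus more frequent on lincRNA promoters than over all genes in both steps, and in the XY step the E13.5 list was the deeper one.

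H3K27me3 was kept by 114 of 144 promoters from XY progenitor to Sertoli cells, or 79.2% (71.6 to 85.5), close to 77.2% of all genes. It was gained by 50 of 429, or 11.7% (8.78 to 15.1), against 7.06%. From XX progenitor to pregranulosa cells 119 of 141 kept it, or 84.4% (77.3 to 89.96), against 81.4%, and 24 of 432 gained it, or 5.56% (3.59 to 8.15), against 4.21%. Losses numbered 30 in the XY and 22 in the XX step. With lists cut to equal length by keeping the widest regions, 37 lost and 39 gained it in the XY step. In the XX step 35 lost and 19 gained it, so the XX balance turned. Such cutting evens the number of regions and not the depth. The XY step ran from the H3K27me3 list with the fewest known tags to the list with the most.

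The progenitor populations shared 130 promoters with H3K27me3, which is 90.3% of those marked in the XY progenitors, against 89.1% over all genes, with 14 in XY and 11 in the XX progenitors alone. Bivalent in both were 102, or 90.3% of the 113 in the XY progenitors, against 91.8% over all genes. For H3K4me3 273 were shared, 95.8% against 97.0% over all genes, with 12 in XY and 51 in the XX progenitors alone, and the XX list was called from more tags. Between the E13.5 cell types 125 promoters shared H3K27me3, 76.2% of those in Sertoli cells against 77.0% over all genes, with 39 in Sertoli and 18 in pregranulosa cells alone. H3K4me3 was shared by 296, 94.9% against 96.9% over all genes, with 16 and 36 alone. In these overlaps the lincRNA promoters lay near all genes.

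Over all 4 populations 384 promoters (67.0%, 63.0 to 70.9) kept a single class, against 79.0% of all genes and 79.3% of coding genes. The same group held 178 promoters with no mark (31.1%, against 40.0% of all genes) and 121 with H3K4me3 alone (21.1%, against 27.6%). It also held 75 bivalent promoters (13.1%, 10.4 to 16.1, against 10.46% of all genes and 13.99% of coding genes). Another 10 had H3K27me3 alone (1.75%, against 0.958% of all genes). H3K4me3 was present in all 4 populations on 45.2%, close to 45.8% of all genes, and H3K27me3 on 18.3% (15.2 to 21.7), against 12.9%. At least 1 population had H3K4me3 on 371 of the promoters (64.7%, against 55.4% of all genes), H3K27me3 on 206 (36.0%, against 26.2%) and both together on 176 (30.7%, against 20.7%). Of these 176, the 75 that were bivalent in all 4 make 42.6% (35.2 to 50.3), against 50.6% of all genes and 52.2% of coding genes.

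The named lincRNAs with described roles covered every class. Of 84 symbols listed for this purpose, 16 are members, 7 are lincRNA genes too near a coding promoter, and 11 have another gene type. The other 50 are not in the annotation under that symbol and could not be looked up. Among the imprinted genes, Meg3, the maternally expressed RNA of the Dlk1-Dio3 cluster (TSS at chr12:110779211, 59329 bp from Rtl1), had 3438 bp of its window under H3K4me3 in the XY progenitors, 3793 bp in the XX progenitors, 2842 bp in Sertoli cells and 3320 bp in pregranulosa cells, and no H3K27me3. Mirg, a microRNA host further along the same cluster (TSS at chr12:110973191), was unmarked in all 4. Airn, the paternally expressed antisense RNA that silences Igf2r from within its body, had H3K4me3 alone in all 4, over 2115, 3824, 2269 and 3704 bp in the same order of populations. Nespas, the antisense RNA of the Gnas locus, was bivalent in all 4, with 3235 to 4001 bp under H3K4me3 and only 1073, 3305, 1913 and 2590 bp under H3K27me3. An imprinted locus has differently marked parental copies, and a bulk list cannot tell both marks on 1 copy from 1 mark on each.

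**Figure D5:**
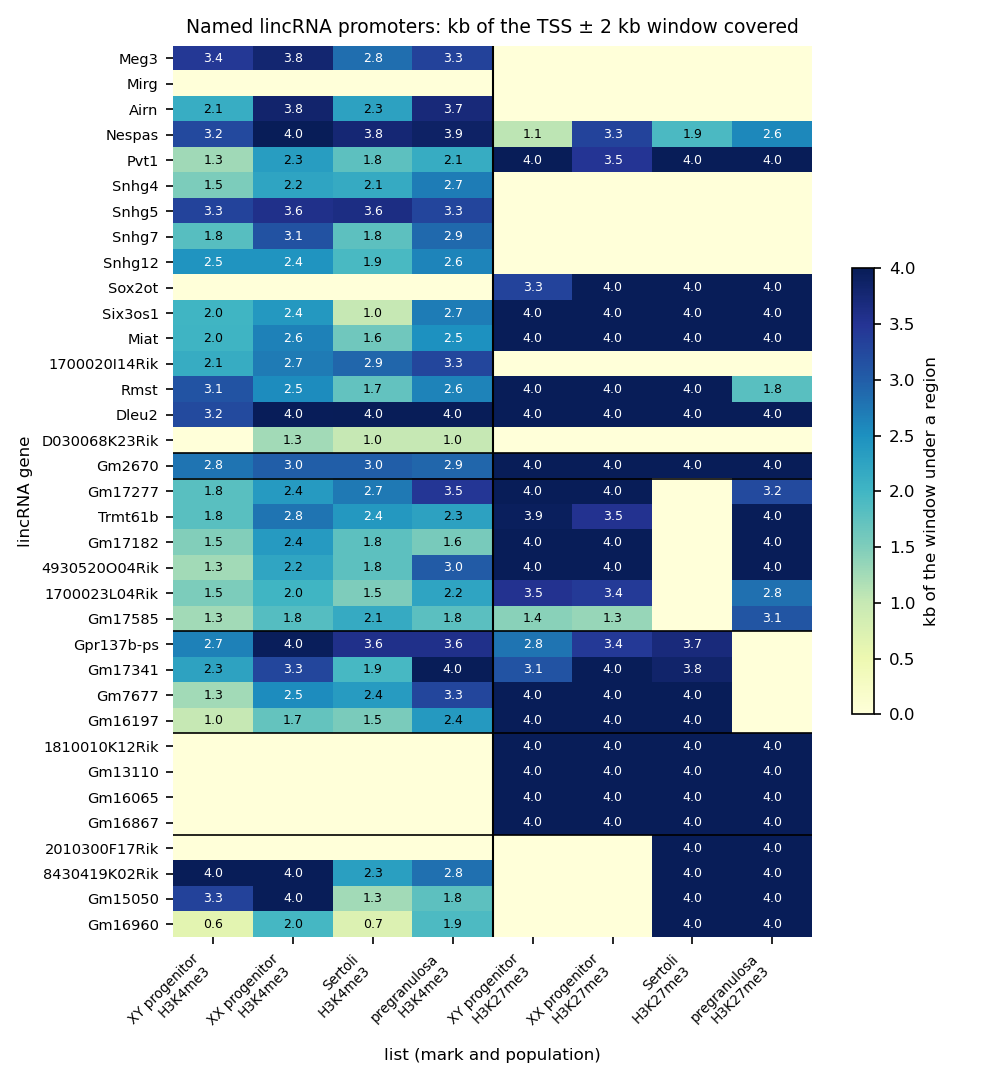
Length of the TSS ± 2 kb window under a region (colour and number, kb) for each named lincRNA promoter (rows) in each list (columns, H3K4me3 left and H3K27me3 right). Rows from the top are lincRNAs with described roles, the member beside Wnt5a, H3K27me3 lost in Sertoli cells, H3K27me3 lost in pregranulosa cells, H3K27me3 alone in all 4, and H3K27me3 gained in both E13.5 cell types. The 4 Snhg genes have H3K4me3 in every list and no H3K27me3, and Sox2ot the reverse.

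The snoRNA host genes were the most uniform group. Snhg4, Snhg5, Snhg7 and Snhg12, which carry snoRNAs in their introns, had H3K4me3 alone in all 4 populations. Snhg5 had 3307, 3578, 3639 and 3292 bp of its window under H3K4me3 in XY progenitor, XX progenitor, Sertoli and pregranulosa cells, and Snhg12 had 2453, 2438, 1923 and 2624 bp. In all, 12 members hold an annotated snoRNA gene on the same strand, and 11 of them had H3K4me3 alone in all 4 populations. The remaining 1, 2900076A07Rik, was unmarked in all 4. None of the 12 had H3K27me3 in any list, and H3K4me3 alone in all 4 populations was found on 21.1% of all members.

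The microRNA hosts were mixed. Of 21 members with an annotated microRNA gene on the same strand, 12 had H3K27me3 in at least 1 population, where 206 of all 573 members did. Bivalent in all 4 were Dleu2, known as a microRNA host deleted in leukaemia, Rmst, a neural lincRNA, A930011O12Rik, which carries Mir124a-1, and D030055H07Rik, which carries Mir135a-1. Meg3, Ttc28 and 2610206C17Rik had H3K4me3 alone in all 4. Sox2ot had H3K27me3 alone in all 4, and Mirg and the gene of Mir155 were unmarked in all 4. The host of Mir9-2, C130071C03Rik, had H3K27me3 alone in both progenitor populations and in pregranulosa cells and was bivalent in Sertoli cells. The host of Mir29b-2 and Mir29c, A330023F24Rik, was bivalent in the XX progenitors and had H3K4me3 alone in the other 3.

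Of the 16 named lincRNAs, 6 were bivalent in all 4 populations, namely Nespas, Pvt1, Six3os1, Miat, Rmst and Dleu2. Miat, an RNA of retinal and neural cells, had 2020, 2642, 1612 and 2493 bp of its window under H3K4me3 in the order above and the whole window under H3K27me3 in all 4. Its H3K27me3 region was 26775, 20098, 54895 and 22053 bp wide, and in Sertoli cells alone it reached a coding promoter window. Pvt1, 52596 bp from the oncogene Myc, had 1277, 2335, 1772 and 2128 bp under H3K4me3 and 3487 to 4001 bp under H3K27me3. Dleu2 had 3223 to 4001 bp under H3K4me3 and its whole window under H3K27me3, in regions of 17383 to 25600 bp that reached no coding window. Six3os1, 4788 bp from the eye and forebrain factor Six3, was bivalent in all 4, under H3K27me3 regions of 56575 to 66432 bp that also cover the Six3 promoter window.

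Sox2ot, whose gene body contains Sox2, was the only 1 of the 16 with H3K27me3 alone in all 4 populations. Its annotated TSS (chr3:34003360, 23117 bp from Dnajc19) had no H3K4me3 in any population and 3299, 4001, 4001 and 4001 bp of H3K27me3. Only the H3K27me3 region of pregranulosa cells, at 21669 bp, was wider than 7608 bp. 1700020I14Rik had H3K4me3 alone in all 4, and D030068K23Rik had no mark in the XY progenitors and 1001 to 1254 bp of H3K4me3 in the other 3.

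The neighbouring coding gene went with the H3K27me3 state of a lincRNA promoter and not with its H3K4me3 state. In the XY progenitors H3K27me3 was on 71 of 173 lincRNA promoters whose nearest coding promoter had it (41.0%, 33.6 to 48.8), and on 73 of 400 others (18.2%, 14.6 to 22.4). The shares were 42.3% and 17.3% in the XX progenitors, 53.4% and 17.6% in Sertoli cells, and 46.2% and 15.8% in pregranulosa cells. In part of these pairs a single region lay over both promoters. Without members whose region reached a coding window, 24.4% (17.5 to 32.6) and 18.05% (14.4 to 22.2) remained in the XY progenitors, 26.0% and 17.1% in the XX progenitors, 34.4% and 17.4% in Sertoli cells, and 29.5% and 15.5% in pregranulosa cells. In the progenitor populations these intervals then overlapped. Only marked members could be left out in this way, and nearly all of them had a marked neighbour. In the XY progenitors the groups went from 173 to 135 and from 400 to 399 members. The fall in the first share and the overlap of the intervals were thus in part fixed by the selection. H3K4me3 was on 50.3% and 47.8% of lincRNA promoters in the XY progenitors with and without H3K4me3 at the neighbour, 55.6% and 60.2% in the XX progenitors, 52.3% and 62.0% in Sertoli cells, and 57.0% and 61.8% in pregranulosa cells.

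For 12 members the nearest coding gene belonged to a developmental family such as Hox, Sox, Pax or Wnt. H3K27me3 was on 9 of these in XY and in the XX progenitors and on 10 in Sertoli and in pregranulosa cells, against 24.1%, 23.5%, 27.5% and 23.7% of the other 561. With only 12 promoters the interval of the progenitor share runs from 42.8% to 94.5%. Regions that also reach a coding window were not left out here, among them those over Six3os1, Gm2670, 1700109F18Rik and Gm16065. Bivalent in all 4 were 4930471M09Rik near Wnt7a, Gm11538 near Hoxb13, 2610307P16Rik near Sox4, Gm2670 near Wnt5a and Six3os1. The neighbour did not always share the class. Sox4 itself had H3K4me3 alone in all 4, as did Gm17419, 8094 bp from it, while 2610307P16Rik was 65522 bp away. Gm17704, 60774 bp from Pax2, was bivalent in both progenitor populations and had H3K27me3 alone in both E13.5 cell types, where Pax2 remained bivalent.

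Only 1 member had as its nearest coding gene any of the gonad genes listed for the purpose. Gm2670 starts at chr14:29324578, 6642 bp from the TSS of Wnt5a and inside its gene on the opposite strand. It had 2778, 2991, 2995 and 2908 bp under H3K4me3 and the whole window under H3K27me3 in all 4 populations. The H3K27me3 regions, 15643 to 25023 bp wide, and the H3K4me3 regions also reached the Wnt5a promoter window in every population, so the Gm2670 calls cannot be told apart from those of Wnt5a.

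A small number of promoters lost H3K27me3 in a single E13.5 cell type. Of the 102 bivalent in both progenitor populations, 6 lost it in Sertoli cells only and 4 in pregranulosa cells only, or 1.05% and 0.698% of the set, where the shares of all genes were 1.11% and 0.667%. A further 11 lost it in both (1.92%, against 1.58%). These shares lie near those over all genes. With only the widest 75% of each list's regions, 1, 5 and 9 promoters made these changes, and with lists of equal length 4, 8 and 17. Those that lost it in Sertoli cells were Gm17277, Trmt61b, Gm17182, 4930520O04Rik, 1700023L04Rik and Gm17585. Gm17277 (TSS at chr10:88807507) had its whole window under H3K27me3 in both progenitor populations, none in Sertoli cells and 3232 bp in pregranulosa cells. Its H3K4me3 covered 1808, 2368, 2723 and 3464 bp in the order of the lists. Its nearest coding gene, Ano4, 86972 bp away, was bivalent in all 4. Gm17585 lies inside Vwa1, which lost H3K27me3 in Sertoli cells as well, under regions that reached its coding window. For the other 5 no H3K27me3 region reached a coding window.

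Those that lost H3K27me3 in pregranulosa cells were Gpr137b-ps, Gm17341, Gm7677 and Gm16197. Gm16197 (TSS at chr17:29215906) lies 12018 bp from Cdkn1a, the gene of the cell cycle inhibitor p21, on the other strand. Its whole window was under H3K27me3 in both progenitors and in Sertoli cells and none of it in pregranulosa cells, while H3K4me3 covered 1001, 1706, 1535 and 2381 bp in the order of the lists. Cdkn1a itself had H3K27me3 alone in both progenitor populations and in pregranulosa cells and was bivalent in Sertoli cells, so the coding promoter kept the mark that its lincRNA neighbour lost. Gm17341 lies next to Rmst on the other strand, and their windows overlap. In pregranulosa cells the H3K27me3 region left the Gm17341 window but still covered 1805 bp of that of Rmst. Gpr137b-ps is named as a pseudogene.

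Gains of H3K27me3 were more frequent in Sertoli cells. Of all 573 promoters, 30 had it in neither progenitor population and gained it in Sertoli cells only (5.24%, 3.56 to 7.39). The same pattern was found on 3.22% of all genes and 3.28% of coding genes. Another 7 of the 573 gained it in pregranulosa cells only (1.22%, against 1.13% of all genes). A further 14 gained it in both (2.44%, against 1.74%). Of the 30 promoters, 15 went from H3K4me3 alone in both progenitors and in pregranulosa cells to bivalent in Sertoli cells. The share of this pattern over all genes was not computed. The 15 include A330048O09Rik, 12457 bp from Id4, a dominant-negative helix-loop-helix factor, and Gm9530, 16370 bp from Ier5, named here after their values were seen. The Sertoli region over A330048O09Rik reached a coding window and that over Gm9530 did not. The Sertoli list also held the most regions among those of H3K27me3, and with the lists shortened to equal length 22, 7 and 11 promoters gained the mark only in Sertoli cells, only in pregranulosa cells or in both.

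Of the 14 promoters that gained H3K27me3 in both E13.5 cell types, 5 had the whole window under the mark in Sertoli and in pregranulosa cells. These were 2010300F17Rik, 8430419K02Rik, Gm15050, Gm16960 and Gm17519, of which the first 4 by symbol are described. Gm15050 starts at chr6:52122880 inside the annotated body of Hoxa3, a factor that patterns the body axis. Its window had 3326 and 4001 bp of H3K4me3 in XY and XX progenitor cells and 1255 and 1769 bp in Sertoli and pregranulosa cells. The H3K27me3 regions over it were 191902 and 193821 bp wide and reached a coding promoter window. 1700109F18Rik, 4201 bp from Hoxd3 and inside its gene, made the same change under regions of 130167 and 54267 bp, which also reached a coding window. 8430419K02Rik had 4001 bp of H3K4me3 in both progenitor populations and 2302 and 2817 bp at E13.5, and Gm16960 had 638, 1959, 724 and 1904 bp in the order of the lists. 2010300F17Rik had no H3K4me3 in any list. For these 3 promoters no H3K27me3 region reached a coding window.

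H3K27me3 alone in all 4 populations was rare, with 10 promoters. The 4 most fully covered were 1810010K12Rik, Gm13110, Gm16065 and Gm16867, with 4001 bp in every list. All 4 lay under regions that also reached a coding window, and Gm16867 is a protein-coding gene in RefSeq. 1810010K12Rik is 6165 bp from Ptf1a, a pancreatic and neural factor, under regions of 43199 to 52160 bp. Gm16065 is 20549 bp from the T-box gene Tbx3, which was bivalent in all 4, under regions of 47432 to 122066 bp. Gm13110 lay in the widest of these regions, 298987 bp in Sertoli cells against 82354 to 83067 bp in the other 3 populations.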

How the data were processed

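H3, H3K4me3 and H3K27me3 were profiled by native MNase ChIP-seq in sorted cells of 4 populations with 2 replicates each. Per the submitters' processing notes the authors used Trim Galore, Bowtie, SAMtools and HOMER on mm9. Per the file headers HOMER called histone-style peaks on the joined replicates over H3, with a 4-fold excess over the control and over the surroundings, a Poisson p-value limit of 1e-04 and a peak size of 1000 bp for H3K4me3 and 5000 bp for H3K27me3 (6 of 8 lists have headers). The deposited score column is 1 in every row of these lists and absent from the 2 pregranulosa lists, so the deposited positions were used only as presence or absence of a mark.

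Overlapping peaks of a list were joined, and a window counted as marked if it shared at least 1 bp with a region. Genes, types and start sites came from the GENCODE annotation of mm9, which has no antisense type. RefSeq (GRCm38) was used for biotypes only. The members and gene lists were chosen with earlier results of these data known. Named genes were every member on a list of lincRNAs with described roles, members whose nearest coding gene is a gonad gene, every member that lost H3K27me3 in a single E13.5 cell type, and the 4 most fully covered members of 2 further patterns, with ties broken by symbol. Other genes are named from small counts, after their values were seen. No test was run, since each list pools its replicates, and the intervals cover 95% by the Clopper-Pearson method. Overlap code was tested on simulated intervals. The alternatives were a 500 bp overlap, windows of 1 kb to each side, the widest 75% of regions and lists of equal length. Further ones were exclusion by every coding transcript and leaving out regions that reach a coding window. Lists of equal length kept the widest regions of each list, which does not equalise depth. Python 3.11.15, NumPy 2.4.6, SciPy 1.17.1 and matplotlib 3.10.9 were used.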

Additional observations from a re-analysis of the deposited data

Results flagged for a closer look

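The number of bivalent lincRNA promoters moved in opposite directions in the XY and XX gonads. It went from 113 in the XY progenitors to 124 in Sertoli cells, a change of 11, and from 124 in the XX progenitors to 115 in pregranulosa cells, a change of -9. The difference between these steps was not tested, since each population has 1 list per mark. With lists of equal length the XY change was -5 and the XX change -30, so the XY direction turned. With only the widest 75% of regions the changes were 2 and -5. The XY step runs from 6470151 to 44446456 H3K27me3 tags, and the part of depth in the counts was not tested.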

How the results depend on the processing

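A result is called moved where an alternative took it outside its own 95% interval. Of 10 shares (each mark in each population, and the bivalent share kept in each sex), none moved with a 500 bp overlap or with every coding transcript used for exclusion (518 promoters), nor when members with another RefSeq biotype were left out (538 promoters, an alternative chosen after seeing the data). With windows of 1 kb to each side H3K4me3 in pregranulosa cells fell to 53.4%. With the widest 75% of regions H3K4me3 was on 51.8% in the XX progenitors, 49.6% in Sertoli cells and 52.2% in pregranulosa cells, and H3K27me3 on 20.6% in the XX progenitors. With lists of equal length (37849 and 9309 regions) 64.2% of bivalent promoters stayed bivalent from XX progenitors to pregranulosa cells. The pregranulosa list was shortened from 12609 H3K27me3 regions, while the XX progenitor list kept all of its own. Without regions that reach a coding window, H3K27me3 was on 18.3%, 17.98%, 19.7% and 17.6% of promoters, by construction fewer. The counts of gained and lost H3K27me3 under each alternative were computed after seeing the data. Over all alternatives 22 to 30 promoters gained it in Sertoli cells only and 5 to 9 in pregranulosa cells only, and 1 to 7 and 3 to 8 lost it there. In the XX step the losses outnumbered the gains with lists of equal length (35 and 19), with windows of 1 kb to each side (23 and 22) and without regions that reach a coding window (25 and 23). No paired analysis was possible because each list pools both replicates, and for the same reason no replicate could be left out. Presence or absence carries no level of a mark, and a promoter without a call may lie under the limit that depth sets.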
